A study of Mus musculus with 16 samples.

Results

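The genes described here make, export and use microRNAs: Drosha, Dgcr8, Xpo5, Dicer1, Ago1, Ago2, Ago3, Ago4, Tnrc6a and Tnrc6b. They were taken as a list of gene symbols by their known roles, and every Affymetrix probe set that the platform annotation assigns to one of them was taken. All 10 genes were measured, by 34 of the 37112 probe sets tested. Tnrc6a had 9 probe sets, Ago3 had 5, Ago2 had 4, Drosha, Dgcr8 and Tnrc6b had 3 each, Xpo5, Dicer1 and Ago4 had 2 each, and Ago1 had 1. Their Entrez identifiers, in the order of the first sentence, were 14000, 94223, 72322, 192119, 236511, 239528, 214150, 76850, 233833 and 213988. The RNA came from D1 medium spiny neurons, the striatal output cells that carry the dopamine D1 receptor, and was pulled down with their tagged ribosomes. In such bulk RNA, fewer cells and less RNA per cell cannot be told apart. The 9 deletion mice carried the D1-MSN-tagged ribosome together with a D1-MSN specific homozygous deletion of miR-128-2. The 7 control mice were littermates with the tagged ribosome only. All were C57BL6/J mice of 3 months, with 4 deletion and 4 control mice in experimental repeat 1 and 5 deletion and 3 control mice in experimental repeat 2. The driver of the tag and of the deletion is not given in the sources used here, and anything else that differed between the genotypes cannot be told apart from the deletion.

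A microRNA is cut from its primary transcript in the nucleus by the ribonuclease Drosha with its RNA-binding partner Dgcr8, carried to the cytoplasm by exportin 5 (Xpo5), and trimmed to a duplex by Dicer. One strand is then loaded into an Argonaute protein, which pairs it with messenger RNAs through the seed at the strand's 5′ end. Tnrc6 proteins, the mammalian GW182 family, bind Argonaute and bring in the deadenylases and decapping factors that silence the target. miR-128 is an abundant microRNA of mature neurons, made from a pair of loci in the introns of Arpp21 and R3hdm1.

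The sequences below show what these proteins handle and what the deletion removes. Each is read 5′ to 3′ and comes from RefSeq on build GRCm38.p6. In the hairpins the capitals mark the mature miR-128-3p strand, and in the mature strands they mark the seed, bases 2 to 8.
Mir128-2 hairpin, chr9:112118636-112118711, minus strand: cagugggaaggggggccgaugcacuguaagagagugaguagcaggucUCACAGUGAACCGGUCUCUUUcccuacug
Mir128-1 hairpin, chr1:128202361-128202430, plus strand: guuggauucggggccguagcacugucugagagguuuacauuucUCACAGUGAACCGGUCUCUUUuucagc
miR-128-3p, from either hairpin: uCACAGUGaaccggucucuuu
miR-128-2-5p: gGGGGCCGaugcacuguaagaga
miR-128-1-5p: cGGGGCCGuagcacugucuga
The 3p strand is the same 21 bases at both loci, so the undeleted Mir128-1 locus encodes the same mature microRNA. The 5p strands share a seed and differ in length, at 23 and 21 bases. The arrays did not measure mature microRNAs.

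Each probe set's median over the 16 arrays had been set to 0 in the deposited log2 values. A value of 0.30 therefore means 0.30 log2 above that probe set's own median, and no level can be compared between probe sets or genes. For the same reason the D1 identity of the RNA could not be checked as a level. The mean of 6 measured D1 markers ran from 0.00 to 0.21 with the deletion and from -0.31 to 0.04 without it. Replicate 3 of control repeat 1 and replicate 1 of control repeat 2 stood apart in markers of other cells. Their mean over 11 of 12 listed oligodendrocyte markers was 1.58 and 1.42 log2, against at most 0.43 on the other 14 arrays, and their D1 marker means were the lowest, at -0.21 and -0.31. The 3′ minus 5′ difference of the array's control probe sets, a sign of RNA quality, was 1.82 log2 on control repeat 2 replicate 1 and 1.17 on deletion repeat 2 replicate 2, against at most 0.41 on the other 14 arrays. The difference without the 2 control arrays of high oligodendrocyte markers is also given for each member gene. Precision is limited by how many arrays there were.

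None of the 34 probe sets of the microRNA machinery passed the test between genotypes (limma with genotype and repeat as terms, adjusted p under 0.05 over all probe sets, smallest adjusted p = 0.34). Of all probe sets tested, 0.0323% were called, so a count of 0 among 34 does not set these genes apart. At an unadjusted p under 0.05, 3 of the 34 differed, 1 higher and 2 lower in the deletion mice, against 6.84% of all probe sets (3.71% higher and 3.13% lower). They were Dicer1 1460571_at, Dgcr8 1455311_at and Xpo5 1451468_s_at. The exact permutation of genotype within the repeats gave 2 of the 34 at that level, Dgcr8 and Xpo5, against 2421 of all 37112 probe sets. Values averaged per gene were called for 0 of the 10 genes, against 0.0617% of all genes. At a limma unadjusted p under 0.05 there was 1 of the 10, Drosha, against 8.69% of all genes.

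**Figure D1:**
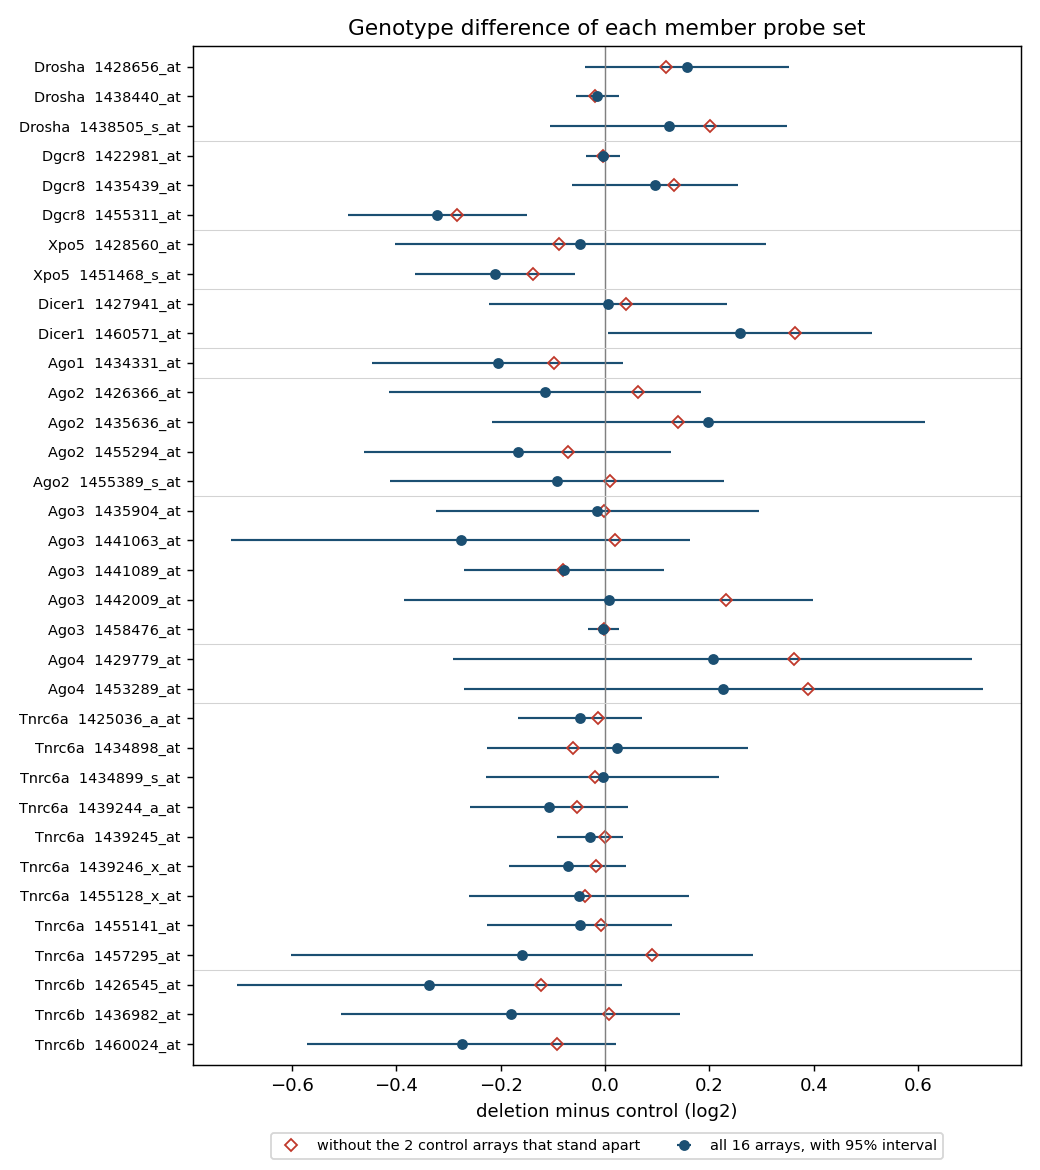
Difference between deletion and control (x axis, log2) for each of the 34 probe sets (y axis, grouped by gene), from the fit with experimental repeat as a term. Filled points are estimates over all 16 arrays with 95% intervals, and open diamonds are estimates without the 2 control arrays that stand apart. The intervals of Dgcr8 1455311_at, Xpo5 1451468_s_at and Dicer1 1460571_at leave out 0 and those of the other 31 include it.

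Most differences were smaller than the spread between arrays, given by a residual SD with a median of 0.22 log2. Dgcr8 1455311_at, Xpo5 1451468_s_at and Dicer1 1460571_at were larger, at -0.32, -0.21 and 0.26 against residual SDs of 0.16, 0.14 and 0.24. The differences ran from -0.34 to 0.26 log2 over the 34 probe sets, with a median absolute difference of 0.10. The half-width of the 95% interval, a measure of precision, had a median of 0.23. In 10 probe sets the difference was positive and in 24 negative, with a median of -0.05, against 41.4% positive and a median of 0.00 over all probe sets. Without the 2 control arrays 3 of the 34 again had an unadjusted p under 0.05, against 3.64% of all probe sets. The split was then 15 positive and 19 negative with a median of 0.00. Of the 34 differences 7 had the other sign, against 5706 of all 37112. The ranges of the deletion and control arrays overlapped in all 34, while 0.0296% of all probe sets had ranges that did not. Little variation marked 4 of the 34, with a residual SD under 0.1 log2: 1438440_at of Drosha, 1422981_at of Dgcr8, 1458476_at of Ago3 and 1439245_at of Tnrc6a. Centred values cannot show whether such a probe set detected its transcript, and its narrow interval is no sign of a well measured gene.

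Of the nuclear enzymes, Drosha, the ribonuclease that makes the first cut, had 2 variable probe sets, both with a positive difference. 1428656_at differed by 0.16 ± 0.09 log2 (SE) and 1438505_s_at by 0.12 ± 0.11. The remaining one, 1438440_at, was at -0.01 ± 0.02 and hardly varied. Averaged over its probe sets, Drosha ran from -0.12 to 0.17 in the deletion mice and from -0.14 to 0.10 in the controls, so the groups overlapped. The difference of 0.09 ± 0.04 log2 (95% interval 0.01 to 0.17) was 0.09 in each repeat and positive for 8 of 9 deletion arrays when each was set against the controls of its repeat. Its limma unadjusted p was 0.029 and its adjusted p 0.52 over all genes. Without the 2 control arrays that stand apart the gene average differed by 0.10 ± 0.04 (limma unadjusted p = 0.039). Taken singly, 1428656_at and 1438505_s_at had limma unadjusted p of 0.11 and 0.27. Set against the controls in the same way, 7 and 6 of the 9 deletion arrays were positive on them. The gene average had a residual SD of 0.07 log2, below the 0.19 and 0.22 of these probe sets. That average also takes in 1438440_at, at 0.03, so its narrow interval is no sign of a well measured gene.

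Dgcr8, the RNA-binding partner of Drosha, had the smallest p of the 34 probe sets, on 1455311_at. The 4 control arrays of repeat 1 read 0.00, 0.46, 0.27 and 0.00 log2 and the 3 of repeat 2 read 0.22, 0.08 and 0.17. The deletion arrays read -0.15, 0.05, -0.07 and 0.06 in repeat 1 and -0.15, -0.30, -0.48, -0.10 and -0.39 in repeat 2. In repeat 2 all deletion arrays lay below all controls, and in repeat 1 the groups overlapped between 0.00 and 0.06. All 9 deletion arrays were below the mean of the controls in their repeat, and 4.16% of all probe sets had all 9 on one side, either way. The difference was -0.32 ± 0.08 log2 (95% interval -0.49 to -0.15), -0.21 in repeat 1 and -0.44 in repeat 2. It did not pass over all probe sets (limma adjusted p = 0.34, unadjusted p = 0.0013, exact permutation p = 0.0028), and the authors' deposited table gives an unadjusted p of 0.0015 for the genotype term. Leaving out 1 array at a time kept it between -0.36 and -0.29, and without the 2 control arrays it was -0.28 (limma unadjusted p = 0.0093). The other probe sets of Dgcr8 did not share this difference. 1435439_at was at 0.10 ± 0.07 log2 and 1422981_at at 0.00 ± 0.02, and the gene average was at -0.08 ± 0.04 (adjusted p = 0.65). Without the 2 control arrays the gene average was at -0.05 ± 0.05.

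Xpo5, the exportin that carries precursor hairpins out of the nucleus, had probe sets of unequal behaviour. On 1451468_s_at the control arrays read 0.11, 0.08, 0.15 and 0.04 log2 in repeat 1 and 0.37, -0.04 and 0.06 in repeat 2. The deletion arrays read 0.01, -0.01, -0.04 and 0.15 in repeat 1 and -0.39, -0.28, -0.06, -0.15 and -0.30 in repeat 2. The repeat 2 deletion arrays were the lowest of all, and those of repeat 1 lay within the range of the controls of both repeats. Against the repeat 1 controls alone, 0.01, -0.01 and -0.04 lay below every control. The remaining deletion value, 0.149, lay just above the highest of them, 0.147. The difference was -0.21 ± 0.07 log2 (95% interval -0.36 to -0.06, limma unadjusted p = 0.010, adjusted p = 0.54), -0.07 in repeat 1 and -0.36 in repeat 2. Without the 2 control arrays, of which control repeat 2 replicate 1 held the highest value, it was -0.14 (limma unadjusted p = 0.037). The authors' deposited table gives it a p of 0.0053. 1428560_at was at -0.05 ± 0.17 log2, with -0.32 in repeat 1 and 0.24 in repeat 2, and the gene average at -0.13 ± 0.08 (adjusted p = 0.74). The gene average was at -0.11 ± 0.10 without the 2 control arrays.

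Dicer1, the cytoplasmic ribonuclease that trims the hairpin to a duplex, differed on 1 of its 2 probe sets at an unadjusted p under 0.05, and there in repeat 1. 1460571_at read -0.76, -0.58, -0.26 and -0.75 log2 on the repeat 1 controls and -0.43, 0.00, -0.07 and 0.18 on the repeat 1 deletion arrays. In repeat 2 the controls read 0.26, -0.04 and 0.16 and the deletion arrays 0.11, 0.37, 0.05, 0.06 and 0.00. Control and deletion arrays overlapped in both repeats, in repeat 1 through 1 array of each group. The difference was 0.51 in repeat 1 and -0.01 in repeat 2, or 0.26 ± 0.12 log2 over both (95% interval 0.01 to 0.51, limma unadjusted p = 0.046, adjusted p = 0.72). Without the 2 control arrays it was 0.36 ± 0.12 (limma unadjusted p = 0.012). The test of the difference between the repeats had an unadjusted p of 0.022 (adjusted p = 0.89). The other probe set, 1427941_at, was at 0.01 ± 0.11 log2 and near 0 in both repeats. As a gene Dicer1 was at 0.13 ± 0.10 (95% interval -0.07 to 0.34), and at 0.20 ± 0.10 without the 2 control arrays (unadjusted p = 0.071).

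Among the Argonautes, Ago2 is the mammalian member best known for cutting a fully paired target. Its 4 probe sets were at -0.11 ± 0.14, 0.20 ± 0.19, -0.17 ± 0.14 and -0.09 ± 0.15 log2, so 3 were negative and 1 positive. They were at 0.06, 0.14, -0.07 and 0.01 without the 2 control arrays, with 3 positive and 1 negative. Averaged, Ago2 ranged from -0.49 to 0.43 on the deletion arrays and from -0.29 to 0.33 on the controls. The difference was -0.04 ± 0.12 log2 (95% interval -0.30 to 0.21), and without the 2 control arrays it was 0.04 ± 0.13, with the other sign.

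Ago3, Ago1 and Ago4 lie next to each other, in this order, among the protein-coding genes of chromosome 4 in the RefSeq annotation, and did not share a direction. Ago1, measured by 1434331_at alone, read -0.03, 0.08, 0.34 and 0.17 log2 on the repeat 1 controls and 0.49, 0.03 and 0.05 on those of repeat 2. The deletion arrays read -0.18, -0.14, -0.09 and 0.42 in repeat 1 and -0.18, 0.31, -0.28, -0.08 and -0.22 in repeat 2. In each repeat all deletion arrays but 1 lay below every control. The difference of -0.21 ± 0.11 log2 (95% interval -0.45 to 0.03, adjusted p = 0.81 over all probe sets) was -0.10 ± 0.11 without the 2 control arrays, each of which held the highest control value of its repeat.

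Ago3 differed by -0.07 ± 0.09 log2 as a gene, and its 5 probe sets ran from -0.28 ± 0.21 (1441063_at) to 0.01 ± 0.18 (1442009_at). On 1441063_at the 2 control arrays that stand apart read 0.85 and 1.12 log2, above all 14 others, and without them its difference was 0.02. The gene was then at 0.03 ± 0.08, with the other sign.

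Ago4 had the widest intervals of the 10 genes. Its 2 probe sets gave like values, 0.21 ± 0.23 log2 on 1429779_at and 0.23 ± 0.23 on 1453289_at. On 1429779_at the repeat 1 controls read -0.28, -1.59, -0.11 and -0.02 and those of repeat 2 read 0.39, -0.03 and 0.03. The deletion arrays read 0.42, 0.16, -0.23 and 0.13 in repeat 1 and 0.08, 0.18, 0.02, -0.33 and -0.46 in repeat 2. Control repeat 1 replicate 2 was far below the rest, and lay at -1.31 on 1453289_at. As a gene Ago4 was at 0.62 in repeat 1 and -0.21 in repeat 2, or 0.22 ± 0.22 over both (95% interval -0.26 to 0.69). Without control repeat 1 replicate 2 it was 0.03, and without the 2 control arrays that stand apart it was 0.38 ± 0.24 (unadjusted p = 0.14).

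Of the Argonaute-binding silencing proteins, Tnrc6a was measured by 9 probe sets. Of these, 8 had a negative and 1 a positive difference, between -0.16 ± 0.21 log2 (1457295_at) and 0.02 ± 0.12 (1434898_at), and the smallest adjusted p was 0.90. The gene average was at -0.05 ± 0.06 (95% interval -0.18 to 0.07). Without the 2 control arrays it was -0.01 ± 0.06.

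Tnrc6b, its paralog, had 3 probe sets, at -0.34 ± 0.17, -0.18 ± 0.15 and -0.27 ± 0.14 log2 over all arrays. They were at -0.12, 0.01 and -0.09 without the 2 control arrays that stand apart, so they no longer shared a sign. On 1426545_at the controls read 0.20, -0.29, 0.75 and 0.05 in repeat 1 and 0.76, -0.08 and 0.04 in repeat 2. The deletion arrays read -0.64, -0.28, -0.50 and 0.24 in repeat 1 and -0.13, 0.21, -0.05, -0.04 and 0.25 in repeat 2. The 2 highest of all 16 values, 0.75 and 0.76, were those of the 2 control arrays with high oligodendrocyte markers. As a gene Tnrc6b differed by -0.26 ± 0.13 log2 (95% interval -0.55 to 0.02, adjusted p = 0.62), and without these 2 arrays by -0.07 ± 0.10 (unadjusted p = 0.49).

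**Figure D2:**
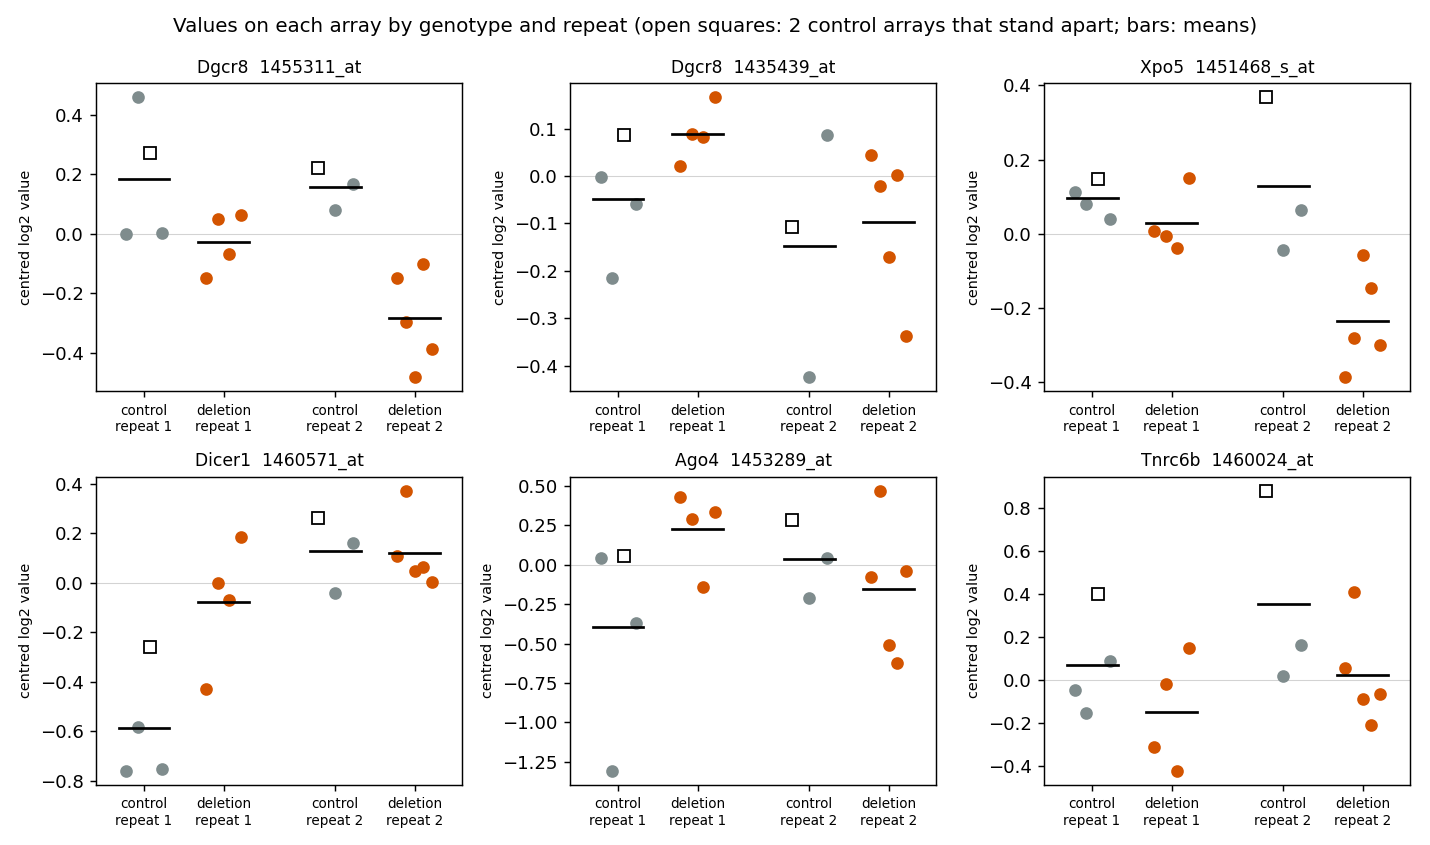
Centred log2 value (y axis) of 6 probe sets on each of the 16 arrays, by genotype and experimental repeat (x axis). Circles are arrays, open squares the 2 control arrays that stand apart, and bars group means. The mean of Dgcr8 1455311_at is lower for the deletion arrays in both repeats, that of 1435439_at of the same gene is not, the Dicer1 difference lies in repeat 1, and 1 control array holds Ago4 1453289_at at -1.31.

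Between the repeats, the genotype difference had the same sign in 18 of the 34 probe sets, against 16056 of all 37112. The interaction of genotype and repeat was called for 0 of the 34 and for 0% of all probe sets (limma adjusted p under 0.05). At an unadjusted p under 0.05 it was found in 3 of the 34, Xpo5 1451468_s_at, Dicer1 1460571_at and Ago3 1441089_at, against 3.85% of all probe sets. Ago3 1441089_at was at 0.09 log2 in repeat 1 and -0.26 in repeat 2 (unadjusted p = 0.042, adjusted p = 0.89).

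**Figure D3:**
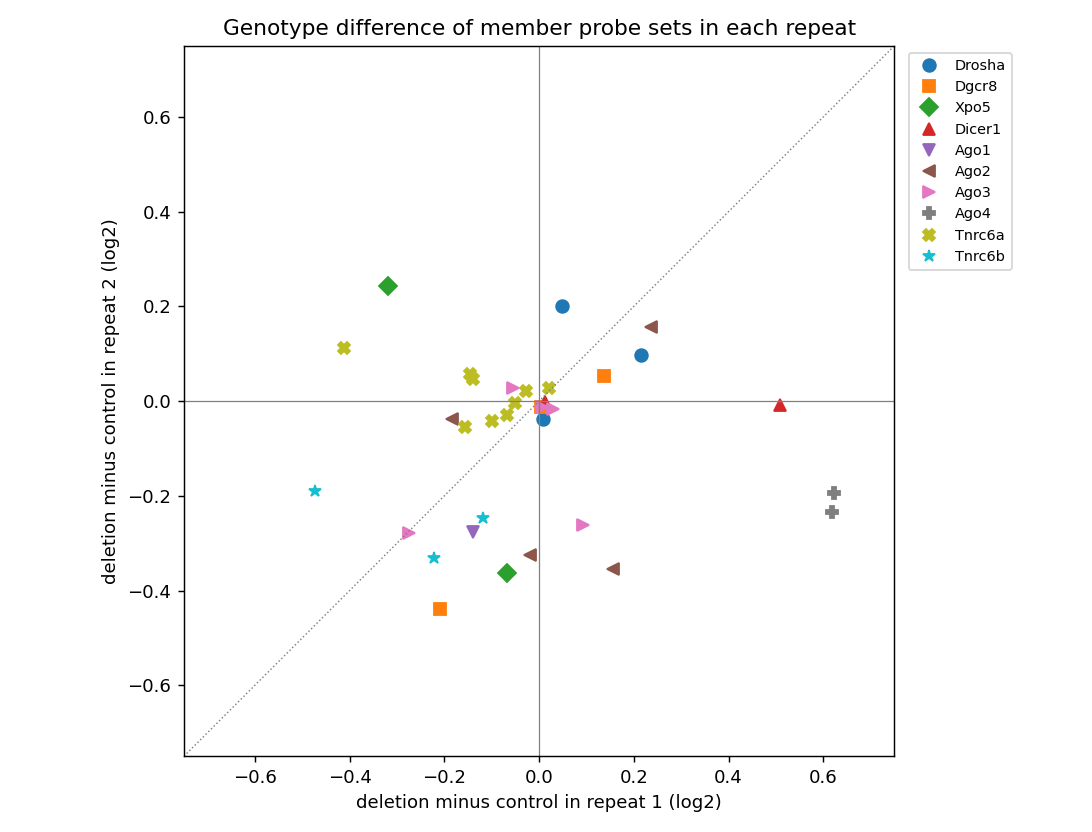
Genotype difference (deletion minus control, log2) of the 34 probe sets in repeat 1 (x axis) and repeat 2 (y axis), with 1 symbol per gene and the line of equal differences dotted. Dgcr8 1455311_at, at -0.21 and -0.44, and the 3 probe sets of Tnrc6b are negative in both repeats over all arrays, and both probe sets of Ago4 are positive in repeat 1 and negative in repeat 2.

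The experimental repeats themselves separated more of these probe sets than genotype did. Between repeat 2 and repeat 1, 6 of the 34 were called, 4 higher and 2 lower in repeat 2 (limma adjusted p under 0.05), against 11.9% of all probe sets (6.35% higher and 5.53% lower). What differed between the repeats other than the mice is not given in the sources used here. For 2 genes the called probe sets went opposite ways. Drosha 1438505_s_at lay between -0.46 and -0.03 log2 on the 8 arrays of repeat 1 and between 0.03 and 0.83 on those of repeat 2, so the repeats did not overlap. It was higher in repeat 2 by 0.64 ± 0.11 log2 (adjusted p = 0.0013), while 1428656_at of the same gene was lower, with a difference of -0.33 ± 0.09 log2 (adjusted p = 0.027). Ago3 1435904_at was higher by 0.50 ± 0.14 (adjusted p = 0.035), and 1442009_at differed by -0.66 ± 0.18 (adjusted p = 0.029).

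Dicer1 1460571_at was higher in repeat 2 by 0.42 ± 0.12 log2 (adjusted p = 0.029) and Tnrc6a 1455141_at by 0.34 ± 0.08 (adjusted p = 0.015). When 1 array at a time was left out, the calls of Drosha 1438505_s_at and Tnrc6a 1455141_at held in 16 of 16 refits. Drosha 1428656_at held in 11, Dicer1 in 9, Ago3 1435904_at in 8 and Ago3 1442009_at in 5, and their differences kept their sign in all 16. The count of called probe sets fell from 6 to 3 without deletion repeat 1 replicate 1 or 4, deletion repeat 2 replicate 2, control repeat 1 replicate 4, or control repeat 2 replicate 2 or 3. Averaged per gene, 1 of the 10 genes was called, Drosha at 0.11 ± 0.04 log2 (adjusted p = 0.0498), against 14.9% of all genes. That average joins probe sets that moved in opposite directions. Without the 2 control arrays that stand apart, Drosha 1428656_at, Dicer1 1460571_at and Ago3 1435904_at were not called (adjusted p = 0.053, 0.051 and 0.073). Their differences were then -0.34, 0.39 and 0.51 log2. Drosha and Ago3 thus no longer had called probe sets going opposite ways, and Xpo5 1451468_s_at was called (-0.19 log2, adjusted p = 0.047).

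**Figure D4:**
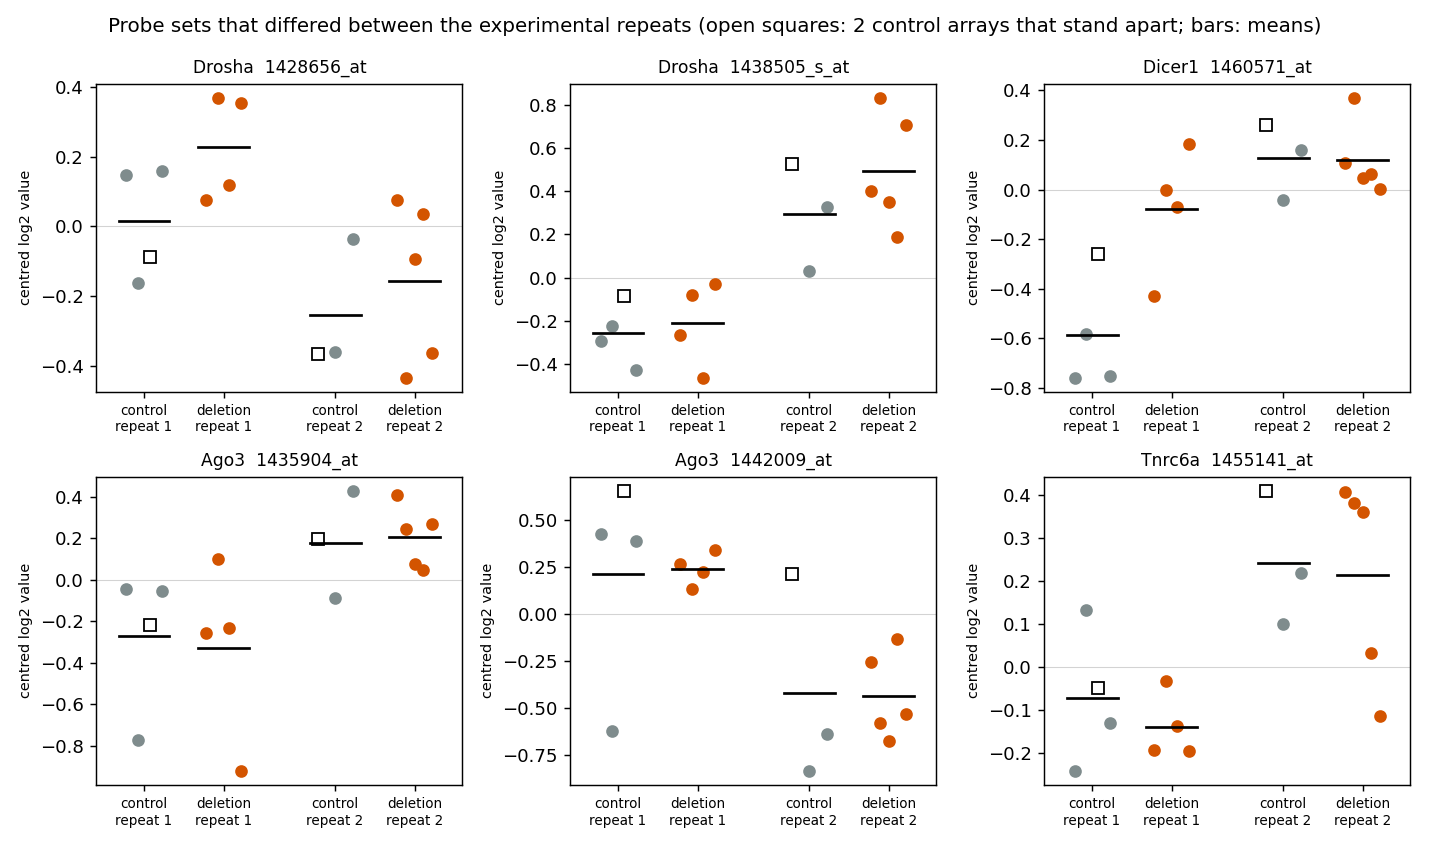
Centred log2 value (y axis) on each array, by genotype and repeat (x axis), of the 6 probe sets called between the experimental repeats. Circles are arrays, open squares the 2 control arrays that stand apart, and bars group means. The probe sets of Drosha and of Ago3 change in opposite directions between the repeats.

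Over both repeats, most pairs of the 10 genes had positive correlations across arrays, and in repeat 1 many did not. After removal of the mean of each genotype and repeat group, 41 of the 45 pairs of genes had a positive Pearson correlation over the 16 arrays, with a median r of 0.40, and of 0.34 without the 2 control arrays. Over all pairs of the genes tested, 51.9% were positive, with a median r of 0.02, against 91.1% of these 45. In repeat 2 all 45 were positive (median r 0.59), while in repeat 1 17 were negative (median r 0.24), the lowest being that of Xpo5 and Ago4 at -0.80. The 2 arrays with the largest 3′ minus 5′ difference held the highest values of repeat 2 for Ago1 (0.49 and 0.31 log2), Ago2 (0.33 and 0.43), Dicer1 (0.25 and 0.34), Ago4 (0.34 and 0.32), Tnrc6a (0.17 and 0.22) and Tnrc6b (0.81 and 0.36). Without these 2 arrays, an alternative chosen after seeing the data, 33 of the 45 pairs were positive, with a median r of 0.25. Values of one array share its RNA, labelling and scan, and genes are not independent of each other. The highest r was that of Ago3 and Tnrc6b, at 0.79 (Spearman rho 0.78, permutation p = 0.0099 and 0.017), with 0.79 in repeat 1 and 0.82 in repeat 2. It was 0.65 without the 2 arrays farthest from the Ago3 median. Ago1 and Tnrc6b had an r of 0.78 (rho 0.60, permutation p = 0.0026 and 0.025), with 0.71 and 0.85 in the repeats and 0.77 without the 2 farthest arrays. Dicer1 and Tnrc6a had an r of 0.71 (rho 0.76, permutation p = 0.0021 and 0.0025), with 0.62 and 0.90 in the repeats and 0.77 without the 2 farthest arrays. Without the 2 control arrays of high oligodendrocyte markers, r was 0.56 for Ago3 and Tnrc6b. It was then 0.71 for Ago1 and Tnrc6b and 0.67 for Dicer1 and Tnrc6a. After Benjamini-Hochberg adjustment over the 45 pairs, 0 passed, the smallest adjusted p being 0.054 by Pearson and 0.056 by Spearman, while 13 pairs had an unadjusted permutation p under 0.05 by Pearson.

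**Figure D5:**
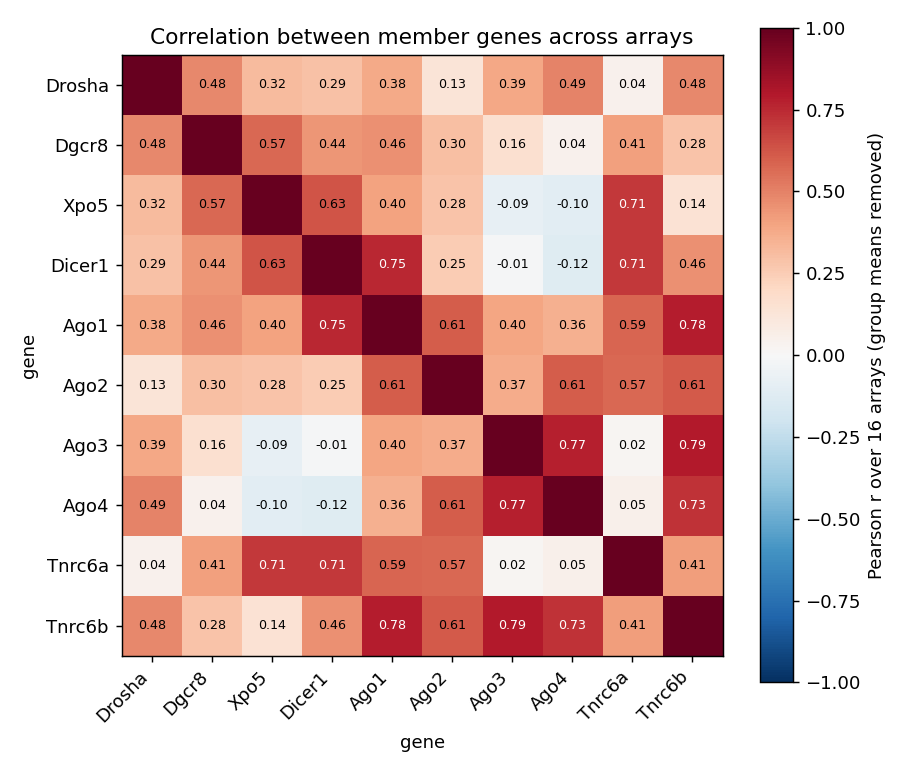
Pearson correlation (colour scale from -1 to 1, value printed in each cell) between the 10 genes over the 16 arrays, after removal of the mean of each genotype and repeat group. The highest values are those of Tnrc6b with Ago3, Ago1 and Ago4, of Ago3 with Ago4, and of Dicer1 with Ago1, and 4 pairs lie below 0.

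Other genes of the pathway gave 0 calls too. Of 46 listed, 43 were measured, and Hsp90ab1, Mov10 and Cnot1 were not analysed here. In the deletion mice 21 were higher and 22 lower, with a median difference of 0.00 log2, and 0 passed in either direction (limma adjusted p under 0.05 over all genes, smallest adjusted p = 0.35). At an unadjusted p under 0.05, 10 of the 43 differed, or 23.3%, with 5 higher and 5 lower, against 8.69% of all genes (4.97% higher and 3.71% lower). Without the 2 control arrays 4 of the 43 did, or 9.30%, against 4.79% of all genes. They were Prkra, Fxr2, Dcp1a and Edc3.

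Nuclear processing and export cofactors had 0 of 7 at that level. The RNA helicases of the Drosha complex, Ddx5 and Ddx17, were at -0.18 ± 0.08 and 0.02 ± 0.07 log2, and at -0.14 and 0.04 without the 2 control arrays. Among 9 Dicer partners and precursor modifiers, Tarbp2, a double-stranded RNA-binding partner of Dicer, was at 0.14 ± 0.08 log2. Prkra, its paralog and also a Dicer partner, was at -0.25 ± 0.08 (unadjusted p = 0.0055, adjusted p = 0.35). Without the 2 control arrays Tarbp2 was at 0.10 and Prkra at -0.22 (limma unadjusted p = 0.21 and 0.028). Argonaute partners included the third GW182 paralog Tnrc6c at -0.08 ± 0.10 and the chaperone Hsp90aa1 at -0.06 ± 0.06, with 2 of 9 at an unadjusted p under 0.05, Fxr2 at 0.24 ± 0.09 and Zswim8 at -0.29 ± 0.12. Tnrc6c was at -0.11, Hsp90aa1 at -0.01, Zswim8 at -0.18 (limma unadjusted p = 0.16) and Fxr2 at 0.29 (limma unadjusted p = 0.017) without the 2 control arrays.

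Genes of deadenylation, which shortens the poly(A) tail of a silenced RNA, and of poly(A) binding had 4 of 9 at an unadjusted p under 0.05. Cnot6, Cnot6l and Cnot7, catalytic subunits of the CCR4-NOT deadenylase, were at 0.26 ± 0.10, 0.29 ± 0.11 and 0.27 ± 0.11 log2. Cnot3, a non-catalytic subunit of the same complex, was at -0.50 ± 0.20. Without the 2 control arrays, 0 of the 9 had an unadjusted p under 0.05, and these 4 were at 0.18, 0.14, 0.14 and -0.35. The poly(A)-binding protein Pabpc1 was at 0.00 ± 0.04 and Cnot2 at 0.03 ± 0.05. Decapping and decay genes had 3 of 9 at that level, Dcp1a at 0.13 ± 0.06, Edc3 at -0.15 ± 0.07 and Edc4 at -0.30 ± 0.13. The helicase Ddx6 was at 0.00 ± 0.11 and, without the 2 control arrays, at 0.10. Dcp1a was then at 0.15, Edc3 at -0.18 and Edc4 at -0.32 (limma unadjusted p = 0.0497, 0.037 and 0.052). Fxr2, Zswim8, Cnot6, Cnot6l, Cnot7, Cnot3, Edc3 and Edc4 were named after their values were seen.

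Between the repeats 11 of the 43 were called, or 25.6%, with 8 higher and 3 lower in repeat 2, against 14.9% of all genes (7.84% higher and 7.1% lower). Higher in repeat 2 were Ddx5 by 0.59, Ran by 0.15, Xpo1 by 0.40, Prkra by 0.36, Adarb1 by 0.21, Fmr1 by 0.14, Fxr1 by 0.39 and Cnot3 by 0.73 log2. Ddx17, Cnot2 and Xrn1 were lower, with differences of -0.32, -0.27 and -0.36. Of the 2 genes that host miR-128, Arpp21 was at 0.10 ± 0.03 log2 in the deletion mice (limma unadjusted p = 0.0041, adjusted p = 0.32). R3hdm1 was at -0.15 ± 0.07 (limma unadjusted p = 0.042, adjusted p = 0.55). For Arpp21 all 9 deletion arrays were above the control mean of their repeat, and 801 of all 16206 genes had all 9 on one side. Without the 2 control arrays R3hdm1 was at -0.09 ± 0.07 (unadjusted p = 0.23) and Arpp21 at 0.08 ± 0.03 (unadjusted p = 0.027). Neither passed, and where their probe sets lie relative to the deletion was not examined.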

How the data were processed

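Per the labels' protocols, polysome-associated RNA was amplified, biotin-labelled and put on Affymetrix mouse arrays. Per the submitters' processing notes GCOS 1.4 and GCRMA were used. The values deposited are log2 expression, centred: every one of the 37174 probe sets had a 16-array median of 0 to within 1e-06. The sources used here do not give the centring tool or any earlier filter. Per the file headers, a deposited p-value column holds the genotype term of a 2-way ANOVA, and an ordinary model with genotype, repeat and interaction gave the same to within 2e-05.

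The 62 control probe sets were left out. The annotation gave 1 gene for 29680 of the remaining 37112, several for 819 and none for 6613, and 29539 symbols matched RefSeq by gene identifier. Genes (16206) are means over their probe sets. Tests were two-sided limma 3.58.1 fits in R 4.3.3 with genotype and repeat as terms and 13 residual degrees of freedom, adjusted by Benjamini-Hochberg over all probe sets or all genes. SE is that of the fitted difference. Exact permutations used all 3920 regroupings within the repeats, and correlations 100000 permutations within the 4 groups. The fit was tested on simulated data. Replicates are titled biological. Deviations of same-numbered arrays had correlations from -0.27 to 0.39, of both signs in each repeat, and numbers were not treated as pairs. A fit with replicate blocks is among the alternatives.

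The members and lists were chosen with earlier results of these data known. Named were all members with their probe sets, and of each pathway list its called genes or else the first 2 measured in list order. Marker lists served as array means, and every list other than those of D1 neurons and oligodendrocytes is summarised in the closing part. Alternatives were the model, variance, weights, scaling, a filter on little variation, and arrays left out.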

Additional observations from a re-analysis of the deposited data

Results flagged for a closer look

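In 11 of 88 groups tested (each genotype's arrays for each gene and probe set), 1 array lay far from the others by Dixon's ratio. Chance flags about 1 in 20 of independent groups. These groups are not independent, because gene averages are made from the same probe sets, and each group pools both repeats. Whether the count exceeds chance was therefore not tested. Control repeat 1 replicate 2 was flagged for Ago4 in the gene average (-1.45 log2, next -0.20) and on both probe sets (-1.59, next -0.28, and -1.31, next -0.37). Control repeat 2 replicate 2 was flagged for the Xpo5 average (-0.42, next 0.05) and for Drosha 1438440_at (0.12, next 0.02), a probe set that hardly varied. Deletion repeat 2 replicate 2 was flagged for the Tnrc6a average (0.22, next 0.04) and 1439246_x_at (0.29, next 0.01). Control repeat 2 replicate 1 was flagged for the same probe set (0.29, next 0.10) and control repeat 1 replicate 3 for Tnrc6a 1439245_at (0.22, next 0.02). For Ago3, deletion repeat 1 replicate 4 was flagged on 1435904_at (-0.92, next -0.26) and deletion repeat 2 replicate 5 on 1441089_at (0.40, next 0.16).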

How the results depend on the processing

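Over 29 alternatives, the 10 gene differences gave 288 values, of which 0 passed (smallest adjusted p = 0.31) and 277 kept their sign. With the exact permutation, the robust variance and the filter on little variation the estimate was that of the main fit, so its sign could not change. The same holds for Ago1, measured by 1 probe set, where probe sets were chosen or combined in another way. The 277 include these values. Ago2 was positive with the replicate block (0.056), without both control arrays that stand apart (0.036), in repeat 1 alone (0.047), by its most variable probe set (0.20), and in 2 of 16 fits leaving out 1 array (range -0.094 to 0.016). Ago3 was at 0.034 without both control arrays and 0.030 by the median over probe sets, and repeat 2 alone gave -0.0049 for Dicer1, -0.21 for Ago4 and 0.015 for Tnrc6a. The cause was not tested. Members called between genotypes or by the interaction stayed at 0 in every setting run. Counts over all features were less steady. Probe sets called between genotypes (12) were 1 with genotype alone, 0 with the replicate block, 0 with the ordinary variance, 27 with array weights, 7 with arrays centred, 0 without both control arrays, 2 in repeat 1 alone, 0 in repeat 2 alone, and 0 to 18 with 1 array left out. Genes called (10) were, in the same order but centring, 4, 1, 3, 16, 1, 0 and 0, and 2 to 10. The interaction called 9 probe sets without both control arrays and 0 to 17 with 1 array left out. Members called between repeats numbered 4 without both control arrays, 5 with arrays centred and 3 to 6 with 1 array left out. The 4 include Xpo5 1451468_s_at, which was not called over all arrays. Centring moved the median of all genes by under 0.01 log2. The 7 to 9 arrays per genotype limit the precision, with 95% half-widths of up to 0.50 log2 for a member probe set.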

Other observations

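Mean marker values of the other cell types were high on the 2 control arrays that stand apart for some lists and not for others. They were 0.56 and 0.54 log2 for 3 D2 neuron markers, against at most 0.37 on the other 14 arrays, 0.65 and 0.55 for 3 microglia markers (at most 0.27) and 0.56 and 0.35 for 6 astrocyte markers (at most 0.45). Striatal interneuron markers (4 genes) were at 0.72 and 0.63, against at most 0.65. Cortical neuron markers (3 genes) were at 0.21 and 0.31, and vascular markers (3 genes) at -0.01 and 0.00, both within the range of the other arrays.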
